A study of Mus musculus with 46 samples.

Results

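The genes described here are 39 listed genes of bile acid synthesis and hepatic transport, taken by name from 55774 gene rows in each of 3 expression tables and 56775 in a further one. All 39 had a row in each of the 4 tables. They fall into 7 roles: 8 genes of bile acid synthesis, 2 of conjugation, 4 of sensing and feedback, 9 of uptake, 5 of basolateral efflux, 8 of canalicular export and 3 aquaporins. The series measured RNA in mouse liver and in AML12, a mouse hepatocyte cell line, to ask what loss of the long noncoding RNA Falcor does. Falcor is listed as 9030622O22Rik, on chromosome 2 at 147944740 to 148040203 (minus strand, mm10).

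Livers were labelled Ctrl or Falcor KO on a diet labelled NCD (4 Ctrl, 4 KO) or HFD (5 Ctrl, 6 KO). The labels name no knockout allele, strain, sex, age or time on diet. One set of AML12 lines, described as inducible, held either shCtrl, the control, or shLinc, which a characteristics tag calls shfalcor. These were sampled without doxycycline (NoDox), with it (DoxPlus) and in a state titled DoxMinus, which the labels call restored, with 3 libraries in each of the 6 groups. A separate set of AML12 cells carried a conventional control, Falcor (shFalcor) or ZC3H11A (shZC3H11A) hairpin, with 3 libraries each. Nothing in the sources says whether libraries of a group came from separate animals or cultures, so p-values may measure technical spread alone.

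Hepatocytes make bile acids from cholesterol. The neutral route starts with Cyp7a1, the rate-limiting 7α-hydroxylase, and the alternative route with Cyp27a1 and Cyp7b1, while Cyp8b1 adds the hydroxyl group that separates cholic acid from chenodeoxycholic acid and muricholic acids. Conjugated bile acids leave across the canalicular membrane, return in portal blood, are taken up at the basolateral membrane, and repress their own synthesis through the nuclear receptor FXR.

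The 10 KO livers all had Falcor at 0, against deposited values of 70 to 135 in the NCD controls and 17 to 27 in the HFD controls. Hepatocyte markers were abundant in every liver library, whereas all 5 intestinal and all 4 kidney markers were at 0. The liver tables hold whole numbers that sum to 833910 to 975752 per library, a normalised unit and not read counts, so sequencing depth is unknown. Values below are these deposited values divided by a scaling factor per library, computed within each table by the trimmed mean of M-values (TMM). The NCD factors were 0.841 to 0.972 in Ctrl and 1.01 to 1.17 in KO. Without scaling the median of all genes moved by 0.21 on the log2 scale. The small cytoplasmic RNAs Rn7s1 and Rn7s2 held 25.0 to 38.2% of the Ctrl columns and 20.3 to 23.8% of the KO columns. In HFD, 3 rows with identical values held 22.4 to 56.8% of the Ctrl columns and 35.0 to 78.2% of the KO columns. KO replicate 6 stood apart there, with 78.2% and a scaling factor of 0.411. The part of these features in the results was not tested.

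Upstream bases were available for 31 of the 39 members in the RefSeq promoter table (GRCm38.p6). They are shown for members on which the NCD results turn: Cyp8b1, a pair of uptake carriers on chromosome 6, and the sterol exporters Abcg5 and Abcg8, which lie head to head. Of 32851 promoters of 250 bases, 0.384% held the HNF4 motif CAAAGTCCA on either strand, and Cyp8b1 was the 1 member with a match, 67 bases before its start. The motif TAGGTCA of ROR and REV-ERB receptors was in 2.23% of promoters and at 4 of the 39 starts of the 31 members (Abcb11, Scp2, Slc51a and Slco1a1). The forkhead motif TGTTTAC was in 3.17% of promoters and at 1 member start, Abcb1a. The E-box CACGTG was in 6.02% and at 4 member starts (Abcc4, Aqp8, Nr0b2 and Slc51a). The NR5A2 motif CAAGGTCA was in 1.33% and at 1 member start, Abcg2. The D-box, FXR inverted repeat and HNF1 motifs matched no member. A match describes letters only. The lines give the 250 bases before the start of each gene, read 5′ to 3′ on the gene's own strand, with matches in capitals (in Slco1a1, TAGGTCA on the opposite strand). None of the printed bases lies in an annotated exon.
Cyp8b1, chr9:121916306-121916555, minus strand: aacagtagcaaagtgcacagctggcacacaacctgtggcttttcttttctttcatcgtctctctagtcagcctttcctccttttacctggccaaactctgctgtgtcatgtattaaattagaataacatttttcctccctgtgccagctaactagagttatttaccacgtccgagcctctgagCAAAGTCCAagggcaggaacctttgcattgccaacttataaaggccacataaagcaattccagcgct
Slco1b2, chr6:141629268-141629517, plus strand: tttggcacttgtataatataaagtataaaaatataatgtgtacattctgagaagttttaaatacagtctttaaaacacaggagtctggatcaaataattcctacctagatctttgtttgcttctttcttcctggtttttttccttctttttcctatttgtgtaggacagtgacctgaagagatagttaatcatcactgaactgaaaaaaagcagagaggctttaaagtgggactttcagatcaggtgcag
Slco1a1, chr6:141946963-141947212, minus strand: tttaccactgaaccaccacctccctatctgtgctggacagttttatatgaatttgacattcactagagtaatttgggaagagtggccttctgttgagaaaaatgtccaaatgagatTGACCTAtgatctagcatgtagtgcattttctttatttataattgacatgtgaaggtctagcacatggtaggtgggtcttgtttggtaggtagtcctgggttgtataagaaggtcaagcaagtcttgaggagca
The 109 bases between the starts of Abcg5 (minus strand) and of an Abcg8 transcript (plus strand), which lie in an intron of another Abcg8 transcript, are given on the plus strand.
Abcg5 and Abcg8, chr17:84683012-84683120, plus strand: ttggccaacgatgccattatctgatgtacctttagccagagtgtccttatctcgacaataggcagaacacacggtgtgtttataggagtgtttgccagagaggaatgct

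In NCD liver, KO animals had higher mRNA of 3 organic anion uptake carriers (Slco1b2, Slco1a1, Slco1a4) and 3 canalicular exporters (Abcc2, Abcg5, Abcg8), and lower mRNA of the 12α-hydroxylase Cyp8b1. These 7 of 33 tested members (21.2%) had a limma adjusted p below 0.05, beside 495 of 9536 genes (5.19%), of which 2.47% were higher and 2.72% lower. The calls sit just under the threshold, with adjusted p-values of 0.0343 to 0.0494, and they depend on the library set. Leaving out any one of 7 of the 8 libraries left 0 members called, and leaving out Ctrl replicate 4 gave 11. Without scaling 15 members were called, 14 of them higher, and weights per library gave 11. The directions of these 7 did not change in any alternative. Groups did not overlap for 11 members (33.3%), 8 higher and 3 lower, beside 19% of all tested genes (9.36% higher, 9.62% lower). The members were chosen with earlier results of these data known. Their shares beside those of all genes, here and below, are therefore no test of the list. The median log2 difference was 0.08 over the 33 members and -0.01 over all genes. Of the other 6 members, Slco1a6, Slc51a and Slc51b were at 0 in all liver libraries. Abcb1a and Abcb1b ran from 0 to 1.49 over all livers, and Abcc4 was at 0 in all NCD controls and at 0.852 to 2.97 in KO.

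Among the synthesis genes 1 of 8 was called. Cyp8b1 stood at 133, 94.6, 141 and 176 in the NCD controls and at 55.4, 79.9, 75.0 and 52.5 in KO. Every KO library lay below every control, with a log2 difference of -1.03 ± 0.21 SE (limma adjusted p = 0.0406). Cyp7a1 stood at 23.8, 10.3, 14.0 and 19.2 in controls and at 12.8, 20.0, 8.52 and 11.6 in KO. These ranges overlapped (-0.32 ± 0.30, 95% interval -1.01 to 0.37, limma adjusted p = 0.497). Cyp7b1, the oxysterol 7α-hydroxylase, ran from 66.9 to 105 in controls and from 60.5 to 119 in KO, with a difference of -0.00 ± 0.22 and an interval of -0.50 to 0.49. Cyp27a1, the sterol 27-hydroxylase, differed by 0.21 ± 0.10 (limma adjusted p = 0.202). Scp2, whose products carry and cleave the sterol side chain, was listed at 2341, 2409, 2631 and 2437 in controls and at 2127, 2217, 1978 and 1754 in KO. The groups did not overlap, yet the test did not call it (-0.29 ± 0.10, limma adjusted p = 0.0931). Of the 31-base words of Scp2 transcripts, 33.4% occur in other genes, so its values could hold reads of a copy. Hsd3b7 (54.8% shared words), Akr1d1 and Amacr, which act on the ring or the side chain, gave differences of -0.22, 0.30 and -0.16 with overlapping groups.

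The conjugating enzymes were nearly level. Slc27a5, the bile acid CoA ligase, ran from 432 to 562 in controls and from 460.2 to 559 in KO (0.08 ± 0.10). Baat, which joins bile acids to taurine or glycine, differed by -0.09 ± 0.07, with an interval of -0.24 to 0.07. Neither passed the test.

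None of the 4 sensing genes was called. Nr1h4, which encodes FXR, stood at 55.9, 42.2, 47.4 and 45.8 in controls and at 60.3, 71.3, 54.6 and 60.5 in KO. The lowest KO library lay under the highest control, and the difference of 0.36 ± 0.11 missed the threshold (limma adjusted p = 0.0755). Nr0b2, which encodes the FXR-induced repressor SHP, stood at 44.0, 11.3, 9.69 and 8.52 in controls and at 25.7, 39, 22.2 and 8.90 in KO. A single control library without a replicate number was as high as any KO library, and the interval ran from -0.80 to 1.86. Klb, the β-Klotho coreceptor for FGF15, differed by 0.42 ± 0.15 (limma adjusted p = 0.107), and its receptor partner Fgfr4 by -0.15 ± 0.09.

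Of 8 tested uptake carriers 3 were called, all higher. Slco1b2, the main hepatic organic anion carrier of the OATP1B type, stood at 222, 194, 187 and 242 in controls and at 343, 302, 298 and 326 in KO. The groups were fully apart, with a log2 difference of 0.59 ± 0.10 (limma adjusted p = 0.0343). Slco1a1, another sinusoidal organic anion carrier, stood at 79.6, 83.3, 93.7 and 97.9 in controls and at 126, 114, 132 and 136 in KO. Again no KO library fell within the control range (0.52 ± 0.09, limma adjusted p = 0.0358). Slco1a4, a related carrier, stood at 14.3, 9.26, 11.8 and 17.0 in controls and at 25.7, 19.0, 32.4 and 24.9 in KO. Its difference was 0.92 ± 0.20 (limma adjusted p = 0.0446). These 3 genes lie in 1 cluster on chromosome 6, Slco1b2 at 141629518 to 141686646, Slco1a4 at 141805440 to 141856199 and Slco1a1 at 141907282 to 141946962. Slco1a6, the next member of the cluster at 142085761 to 142208521, was at 0 in every liver library. Slco1a4 shares 5.03% and Slco1a1 4% of their 31-base words with other genes.

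Slc22a7, the organic anion transporter OAT2, had a negative estimate. It stood at 17.8, 25.7, 14.0 and 19.2 in controls and at 5.93, 9.51, 13.6 and 3.56 in KO. The groups were apart by a narrow margin, and the difference of -1.24 ± 0.35 missed the threshold (limma adjusted p = 0.0686). Slc10a1, which encodes NTCP, the sodium-dependent uptake carrier for conjugated bile acids, stood at 162, 151, 179.9 and 201 in controls and at 189, 236, 191 and 207 in KO. Its groups overlapped (0.25 ± 0.11, limma adjusted p = 0.175). Slco2b1, Slco2a1 and Slc10a2 differed by -0.10, 0.03 and 0.12 and were not called.

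Of the basolateral exporters, Abcc3 (MRP3) and Abcc6 could be tested, and neither was called. Abcc3 ran from 77.5 to 114 in controls and from 90.4 to 97.9 in KO (0.06 ± 0.12, interval -0.21 to 0.33). Abcc6 differed by -0.17 ± 0.08 (limma adjusted p = 0.184).

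At the canalicular membrane 3 of 6 tested exporters were called, all higher. Abcc2, which encodes MRP2, the exporter of conjugated organic anions, stood at 96.3, 82.3, 76.5 and 105 in controls and at 155, 134, 121 and 152 in KO. Every KO library exceeded every control (0.64 ± 0.12, limma adjusted p = 0.0395). Abcg5 and Abcg8 together form the sterol exporter. Abcg5 stood at 28.5, 29.8, 25.8 and 35.1 in controls and at 70.2, 44.7, 40.1 and 53.4 in KO (0.76 ± 0.17, limma adjusted p = 0.0459). Abcg8 stood at 39.2, 40.1, 35.5 and 43.6 in controls and at 86.0, 52.3, 53.7 and 63.2 in KO (0.65 ± 0.15, limma adjusted p = 0.0494). KO replicate 1 held the highest value of both genes. Their gene models overlap on opposite strands, and whether the authors' quantification used strand is not given in the sources used here.

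Abcb11, which encodes BSEP, the bile salt export pump, did not follow them. It stood at 138, 148, 154 and 181 in controls and at 144, 150.3, 148 and 154 in KO. The KO libraries lay within the control range (-0.05 ± 0.09, interval -0.25 to 0.16). Abcb4, the phosphatidylcholine floppase, stood at 29.7, 29.8, 28.0 and 33.0 in controls and at 33.6, 37.1, 46.9 and 39.2 in KO, without overlap but outside the call (0.36 ± 0.11, limma adjusted p = 0.0718). Abcg2, the breast cancer resistance protein, differed by 0.55 ± 0.18 (limma adjusted p = 0.0912), with 1 control at 38.3 inside the KO range of 35.8 to 38.6. The aquaglyceroporin Aqp9 stood at 127, 135, 142 and 137 in controls and at 164, 156, 171 and 151 in KO (0.25 ± 0.07, limma adjusted p = 0.0683). The water channels Aqp1 and Aqp8 overlapped between groups.

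**Figure D1:**
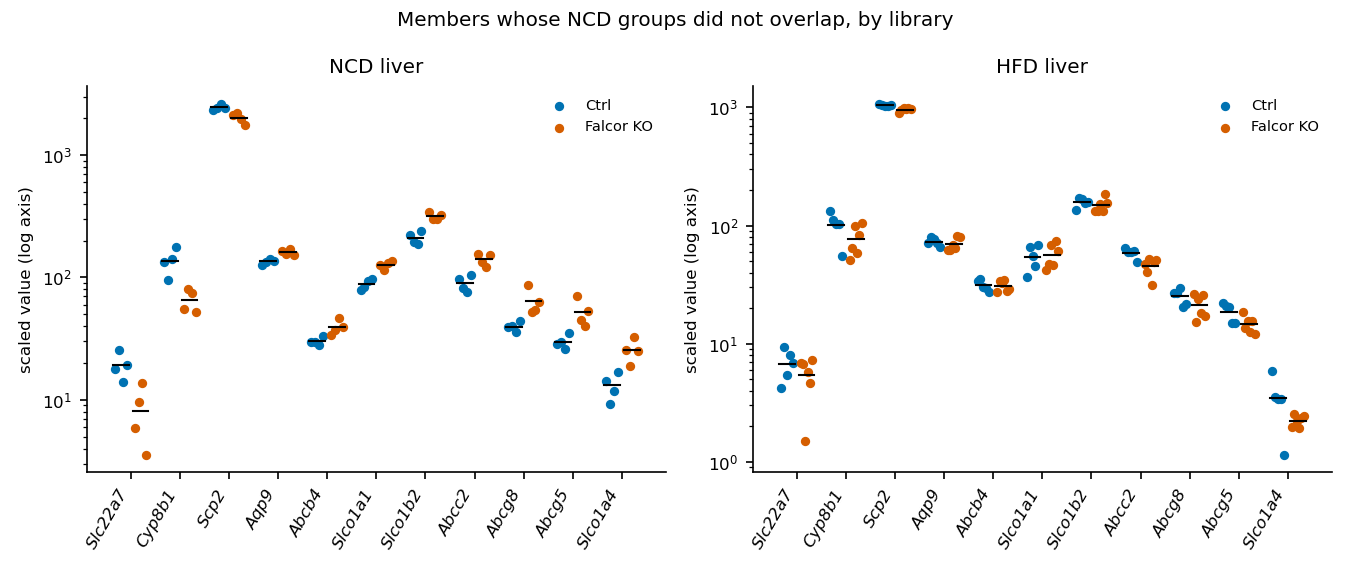
Scaled values per library (log axis) of the 11 tested members whose NCD groups did not overlap, in NCD (left) and HFD (right). Each point is 1 library and each line a group mean. The 2 tables were normalised separately, so levels are not comparable between panels. In HFD the groups overlap for these genes except Scp2.

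Other genes of the pathway came from 4 further lists, to be read against the 5.19% of all genes called in NCD. Of 13 tested bile acid enzymes, 1 was higher, the sulfotransferase Sult2a8 (192 ± 23.9 in KO against 121 ± 14.1, SD, n = 4 each; 0.66 ± 0.11, limma adjusted p = 0.0343). Of 15 regulators, 3 were lower: the forkhead factor Foxa3 (-0.59, limma adjusted p = 0.0475), the mRNA decay factor Zfp36l1 (-0.75, limma adjusted p = 0.0495) and the retinoid X receptor Rxrb (-0.39, limma adjusted p = 0.0499). None of 8 other transporters and none of 14 canalicular membrane and trafficking genes was called. Foxa2, the neighbour of Falcor, differed by -0.24 ± 0.21 (limma adjusted p = 0.462).

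Among genes outside the pathway, of 9 tested clock genes 5 were higher in NCD KO (Per1, Ciart, Dbp, Nr1d2 and Tef), with a list median of 0.79. The 12 clock genes summed to 140.0 to 184 in controls and 227 to 262 in KO. Arntl, which runs in antiphase to Dbp and is named after its values were seen, was below the level tested, at 3.84 ± 1.48 in controls and 1.37 ± 0.51 in KO (SD, n = 4 each). Of the 5 pericentral hepatocyte markers 1 was called, Cyp2e1 (0.64, limma adjusted p = 0.0395), while 2 estimates were positive and 3 negative (median -0.03). The 5 summed to 3435 to 4485 in controls and 4905 to 5575 in KO. The 6 cholangiocyte markers summed to 23.4 to 29.7 and 19.8 to 33.3, with Cftr at 0. The 11 acute phase genes gave 0 calls and a median of -0.52. None of 5 periportal markers was called (median 0.04). Of 7 hepatocyte markers none was called, with 3 estimates positive and 4 negative (median -0.02). They summed to 40964 to 52027 in controls and 45771 to 59616 in KO. All 4 tested Kupffer cell markers had negative estimates (median -0.30), while 3 of 4 endothelial and 3 of 4 stellate estimates were positive, without calls. The part of the clock genes, Cyp2e1 and the cell type markers in the transporter results was not tested. In bulk liver, fewer cells of a type and less RNA per cell cannot be told apart.

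In HFD liver no member was called. Only 4 of 6176 genes passed (0.0648%), and 9 of the 33 tested members had an unadjusted limma p below 0.05, 1 higher (Cyp7b1) and 8 lower (Abcc3, Slc10a1, Slco2b1, Abcc2, Akr1d1, Abcg5, Scp2 and Aqp8), beside 13.4% of all genes. No member was called without KO replicate 6 either. Groups did not overlap for 1 member, Scp2, beside 2.88% of genes. The median over the members was -0.13, against 0.01 over all genes.

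Cyp7b1 had the largest positive estimate. Its controls stood at 22.8, 72.5, 68.9, 43.4 and 125, and its KO libraries ran from 73.7 over a median of 112 to 122. Control replicate 5 was above all KO libraries and the other 4 controls were below all of them (0.85 ± 0.35, limma adjusted p = 0.316). Cyp8b1 controls stood at 132, 112, 103, 103 and 55.2, and KO ran from 51.0 over 74.0 to 105, with overlap (-0.39 ± 0.25, interval -0.93 to 0.15). Cyp7a1 controls stood at 19.4, 9.36, 24.6, 29.7 and 9.20, and KO ran from 3.84 over 12.8 to 19.6 (-0.65 ± 0.48). Its interval ran from -1.71 to 0.41.

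No uptake or export gene passed the test in HFD. Estimates were positive for 3 of 8 uptake carriers, 0 of 2 basolateral exporters and 2 of 6 canalicular exporters. Slc10a1 controls stood at 158, 143, 136, 134 and 118, and KO ran from 85.4 over 111 to 126. Only the lowest control lay within the KO range (-0.34 ± 0.11, limma adjusted p = 0.221). Abcc2 controls stood at 64.2, 59.6, 59.3, 60.6 and 49.4, and KO ran from 31.7 over 48.2 to 52.1, again with 1 control inside (-0.38 ± 0.13, limma adjusted p = 0.227). Abcc3 controls stood at 43.1, 42.1, 42.3, 37.7 and 33.3, and KO ran from 23.6 over 31.5 to 37.5 (-0.36 ± 0.12, limma adjusted p = 0.212). Slco1b2 ran from 135 over 159 to 171 in controls and from 132 over 143 to 185 in KO (-0.09 ± 0.10, interval -0.31 to 0.13). Abcg5 gave -0.32 ± 0.14 and Abcg8 -0.26 ± 0.16. Abcb11 was level (0.01 ± 0.08, interval -0.16 to 0.17). Scp2 ran from 1019 over 1044 to 1076 in controls and from 892 over 963 to 985 in KO (-0.13 ± 0.05, limma adjusted p = 0.333).

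In these livers 0 of 8 clock genes was called (median -0.22), and the 12 clock genes summed to 91.2 to 115 in controls and 77.9 to 117 in KO. The acute phase genes had a median of 1.02, with 7 of 11 at an unadjusted limma p below 0.05 and 0 called. They summed to 1422 to 2360 in controls and 2591 to 14195 in KO. No cell type marker was called. All 5 periportal markers had negative estimates (median -0.38), and so had the 2 tested stellate markers (median -0.52). Of 5 pericentral markers 2 were lower without overlap, while 2 estimates were positive and 3 negative (median -0.03). Of 7 hepatocyte markers 4 estimates were positive and 3 negative (median 0.12). The part of these lists in the member values was not tested.

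**Figure D2:**
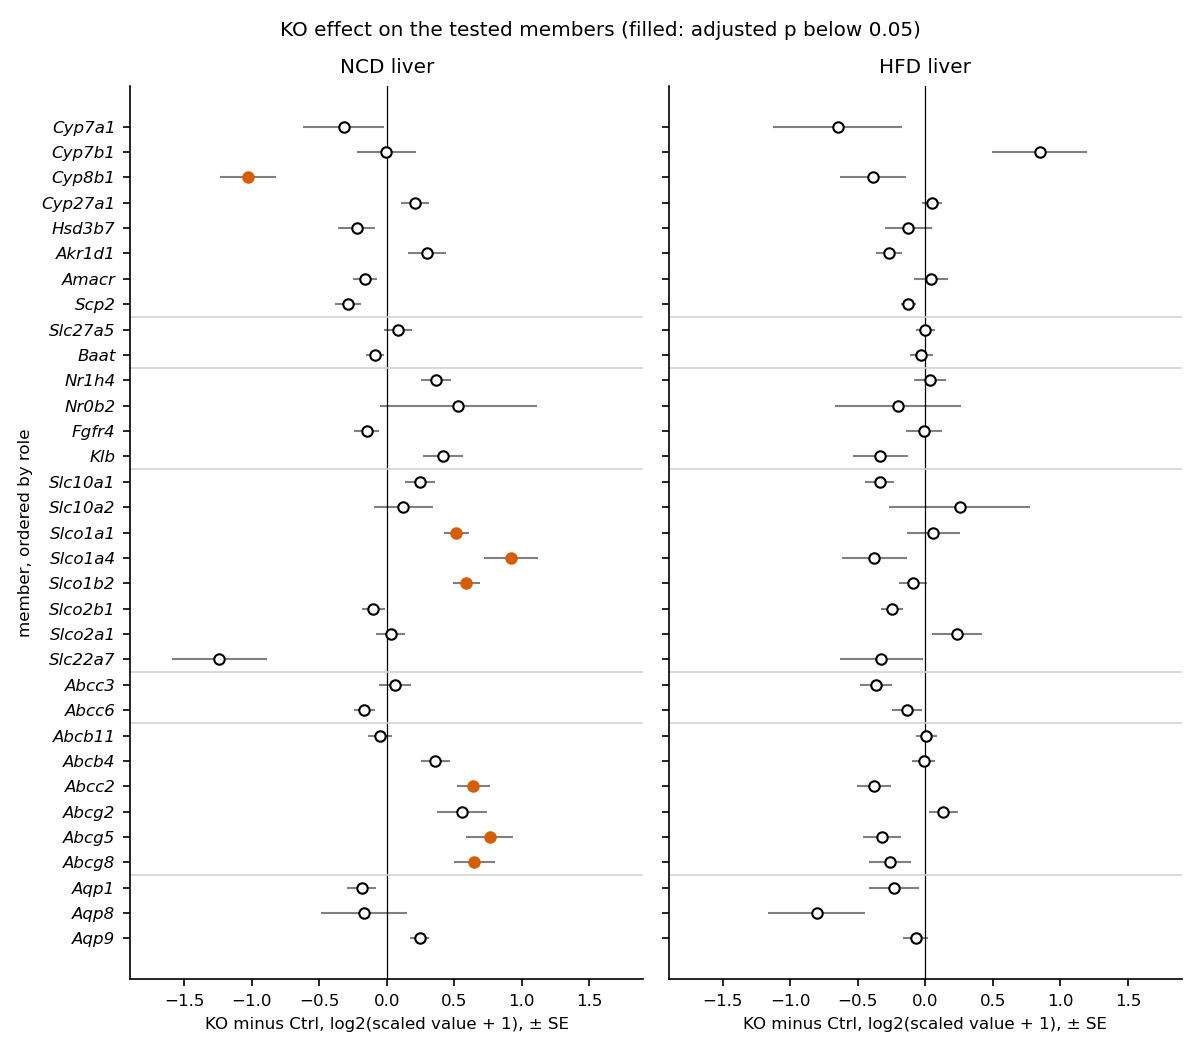
Log2 difference (KO minus Ctrl, log2 of the scaled value plus 1) with its SE for the 33 tested members, ordered by role, in NCD (left) and HFD (right). Filled points have an adjusted p below 0.05: 7 in NCD and 0 in HFD.

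Whether the KO effect differed between diets was tested as the difference of the estimates from the separately normalised tables. It was called for 7 of 33 members, all lower in HFD than in NCD, beside 531 of 6128 genes (8.67%), of which 4.42% were lower. Abcc2 had an effect of 0.64 in NCD and -0.38 in HFD, a difference of -1.02 ± 0.18 (limma adjusted p = 0.00906). The sterol exporter genes also differed, Abcg5 by -1.08 ± 0.22 (limma adjusted p = 0.0156) and Abcg8 by -0.91 ± 0.22 (limma adjusted p = 0.0239). Of the uptake carriers, Slco1b2 differed by -0.68 ± 0.14 (limma adjusted p = 0.0156), Slco1a4 by -1.30 ± 0.31 (limma adjusted p = 0.0240) and Slc10a1 by -0.59 ± 0.16 (limma adjusted p = 0.0312). The 5β-reductase Akr1d1 differed by -0.56 ± 0.17 (limma adjusted p = 0.0496). For Slc10a1 and Akr1d1, neither diet alone gave a call. Slco1a4 stood at only 1.15 to 5.91 in HFD libraries, where rounding to whole numbers is coarse.

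The difference was not called for Cyp8b1 (0.64 ± 0.32, interval -0.03 to 1.31, limma adjusted p = 0.186) or Slco1a1 (-0.46 ± 0.21, limma adjusted p = 0.168), although their effect was called in NCD only. Abcb11 differed by 0.06 ± 0.12 (interval -0.19 to 0.30). Among the other pathway genes, Sult2a8 (-0.74), the xenobiotic receptor Nr1i2 (-0.59), the peroxisomal carrier Abcd3 (-0.63) and the canalicular peptidase Dpp4 (-0.46) were lower in HFD than in NCD (limma adjusted p = 0.0244, 0.0443, 0.0314 and 0.0437), 1 gene in each of 4 lists. In the same comparison 5 of 8 clock genes were lower (median -0.83) and 2 of 11 acute phase genes, Fgb and Itih4, were higher. Of cell type markers, 2 of 2 tested stellate markers (median -0.70) and 1 of 5 pericentral markers were lower, and no other was called. Their part in the member differences was not tested. Without scaling 1 member was called, while the median of all genes moved to -0.28. Leaving out single libraries gave 3 to 11 members. Those that gave 3 or 4 were each of the NCD controls except replicate 4, NCD KO replicates 1 and 4, and an unnumbered HFD control (column Ctrl-1). Leaving out NCD control replicate 4 gave 11, as did weights per library, and leaving out HFD KO replicate 6 gave 6.

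**Figure D3:**
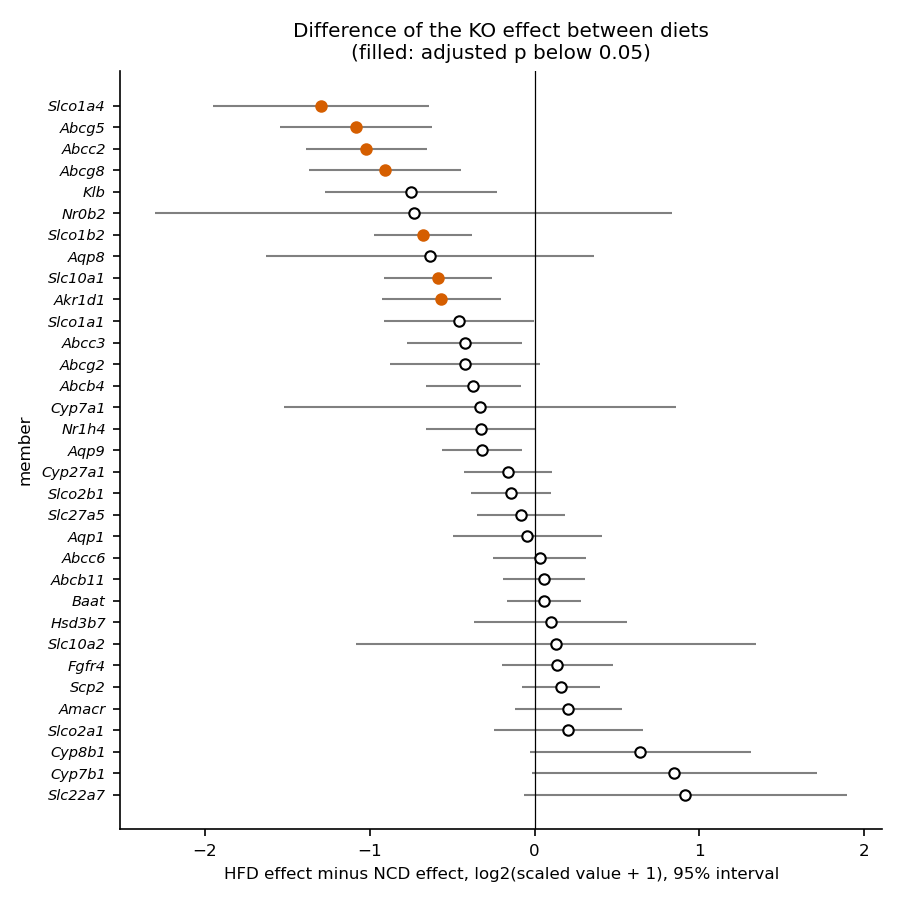
Difference of the KO effect (HFD minus NCD, log2 of the scaled value plus 1) with its 95% interval for the 33 tested members, sorted. The 7 filled points, with an adjusted p below 0.05, all lie below 0, from -0.56 to -1.30.

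Only some of these genes were detected in AML12 cells. In the inducible lines 20 members were at 0 in all 18 libraries, and 18 of them were above 0 in both liver tables: Cyp7a1, Cyp7b1, Cyp8b1, Akr1d1, Slc27a5, Baat, Slc10a1, Slco1a1, Slco1a4, Slco1b2, Slco2b1, Slc22a7, Abcc6, Abcb11, Abcb4, Abcg5, Abcg8 and Aqp8. Inducible values are rounded, so 0 there does not mean that RNA was absent. Of the 18, 15 had at most 9 counts summed over the 9 conventional libraries, while Akr1d1, Baat and Abcc6 had 13, 10 and 41. In the conventional cells 8 members had 0 counts in all 9 libraries (Cyp7b1, Cyp8b1, Nr0b2, Slco1a1, Slco1a4, Slc51a, Abcb11 and Abcb4). A count of 0 allows up to 3 counts, or 0.339 to 0.670 CPM by library total without the TMM factor, for counting error only. Of the 7 members called in NCD liver, none reached the level tested in the inducible lines (Abcc2 stood at 0.927 to 4.98 there), and Abcc2 alone did in the conventional cells. This comparison of levels crosses tables that were normalised separately. The tests covered 13 members in the inducible and 15 in the conventional table.

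In the conventional cells Falcor counts were 11 to 38 in controls, 4 to 7 with shFalcor and 3 to 6 with shZC3H11A. Library totals were 4474760 to 8837581 counts. With shFalcor, 10 of 15 tested members were called, 5 higher and 5 lower, beside 51.5% of 11871 genes. CPM here are counts scaled to the library total times its TMM factor. The ± of an edgeR difference is its size divided by the square root of its F statistic, not a fitted SE. Abcc2 stood at 31.3, 40.3 and 27.4 CPM in controls and at 131, 129 and 127 CPM with shFalcor. The groups did not overlap, with a log2 difference of 1.97 ± 0.13 (edgeR adjusted p = 1.11e-09). Abcg2 stood at 30.7, 28.3 and 38.9 CPM and at 71.4, 67.5 and 65.3 CPM (1.06 ± 0.12). Abcb1a, the multidrug exporter MDR1A with 23.3% of its 31-base words shared, rose by 1.48 ± 0.27, and Hsd3b7 and the basolateral exporter Abcc4 by 0.57 and 0.38.

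The members that fell with shFalcor included a sharp loss of Aqp1 and Slco1a6. Aqp1 had 100, 72 and 75 counts in controls and 3, 0 and 3 with shFalcor. Slco1a6 had 150, 107 and 112 counts and then 0, 0 and 6, with 13.5% of its words shared with other genes. The fitted differences were -5.28 ± 0.49 and -5.88 ± 0.47 (edgeR adjusted p = 8.07e-08 and 1.12e-08). At these counts both differences and their ± depend on the model's prior count. The prostaglandin carrier Slco2a1 stood at 940.2, 905 and 995 CPM in controls and at 452, 393 and 430.3 CPM (-1.15 ± 0.09). Abcc3 stood at 552, 515 and 586 CPM and at 289.7, 273 and 306 CPM (-0.93 ± 0.07). Nr1h4 stood at 97.6, 101 and 105 CPM and at 75.6, 60.2 and 67.2 CPM (-0.58 ± 0.09). In these 3 genes, too, no library of 1 group reached the range of the other.

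With shZC3H11A, 12 of 15 tested members were called, all lower, beside 48.5% of genes, of which 24.3% were lower. Both knockdowns were compared with the same controls, so their values are given side by side only. Scp2 stood at 63.0, 69.5 and 62.2 CPM in controls, at 55.6, 55.2 and 53.8 CPM with shFalcor and at 12.2, 18.03 and 16.1 CPM with shZC3H11A (-2.09 ± 0.13 for the last). Hsd3b7 stood at 43.9, 42.3 and 42.6 CPM in controls and at 15.9, 10.8 and 11.8 CPM with shZC3H11A (-1.72 ± 0.14). Abcc4 fell by 1.01 ± 0.09, Cyp27a1 by 0.84 ± 0.17 and Abcc2 by 0.67 ± 0.14, while Aqp1 had 15, 2 and 8 counts and Slco1a6 2, 2 and 3. Nr1h4 was not called there (-0.08 ± 0.09).

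The knockdowns differed directly for 11 of 15 members, 7 higher and 4 lower with shFalcor, beside 56.9% of genes. The largest differences were Abcc2 (2.64 ± 0.13), Abcb1a (2.44 ± 0.30), Hsd3b7 (2.29 ± 0.13), Scp2 (1.85 ± 0.13) and Abcg2 (1.79 ± 0.13). Aqp1 was lower with shFalcor (-2.18 ± 0.63, edgeR adjusted p = 0.00693), with overlapping groups. Hepatocyte markers fell in 6 of 6 tested with shFalcor (median -3.19), their sum going from 943 to 1079 CPM in controls to 317 to 378 CPM. With shZC3H11A 3 rose and 2 fell, and the sum was 1051 to 1347 CPM. Foxa2 fell by 1.48 ± 0.10 with shFalcor (edgeR adjusted p = 1.89e-09) and was not called with shZC3H11A (0.11 ± 0.10). The part of the marker and Foxa2 changes in the member values was not tested.

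**Figure D4:**
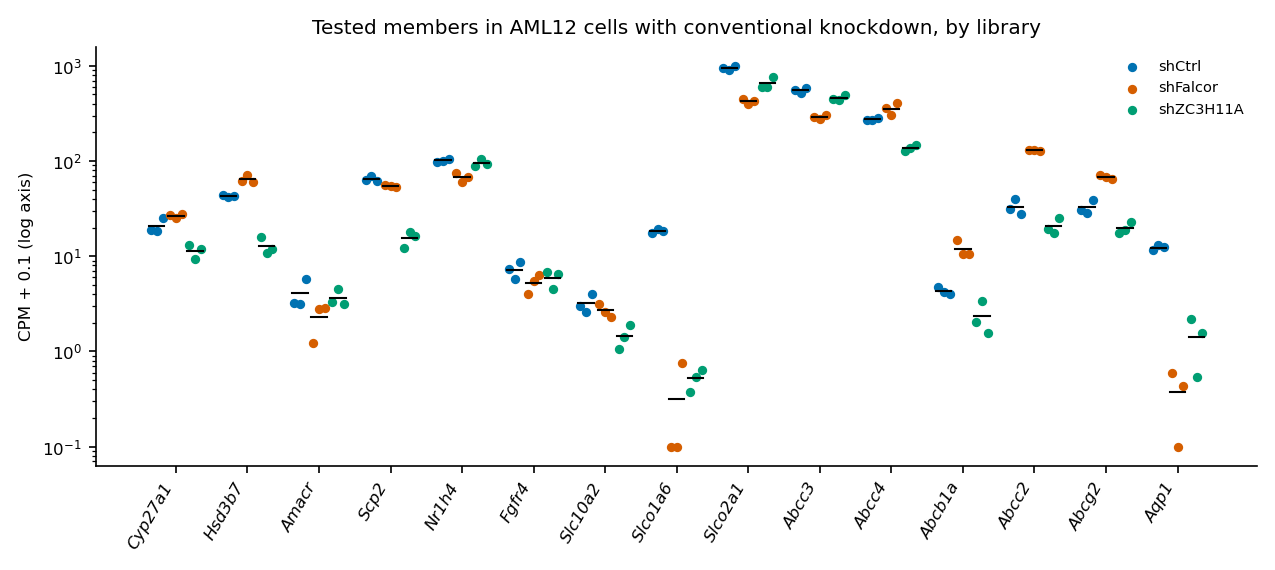
CPM plus 0.1 (log axis) of the 15 members tested in AML12 cells with conventional hairpins. Each point is 1 of 3 libraries per group and each line a group mean. Abcc2, Abcg2 and Abcb1a are highest with shFalcor, and Scp2, Hsd3b7 and Abcc4 lowest with shZC3H11A.

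In the inducible lines, the hairpin labelled shLinc differed from shCtrl before doxycycline was given. Of 13 tested members 11 were called at NoDox, 7 higher and 4 lower, beside 65.5% of 9877 genes. Falcor itself was listed at 9 to 12 in the shLinc line and 4 to 6 in the shCtrl line at NoDox, at 2 to 3 and 4 to 5 at DoxPlus, and at 9 to 11 and 4 to 5 at DoxMinus. The hairpin difference was called for 7 members at DoxPlus (1 higher, 6 lower, beside 52%) and for 10 at DoxMinus (8 higher, 2 lower, beside 58.1%). At DoxPlus the members' share of 53.8% was near that of all genes.

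The change of the hairpin difference from NoDox to DoxPlus was called for 8 members (61.5%), 1 higher (Abcc4) and 7 lower. That share was near the 64.6% of all genes. Klb had the largest change. It stood at 2.25, 3.95 and 3.98 in shCtrl and 12.1, 9.97 and 10.9 in shLinc at NoDox, at 4.26, 4.24 and 4.25 against 2.10, 2.11 and 2.08 at DoxPlus, and at 2.04, 2.04 and 3.06 against 8.34, 8.44 and 8.34 at DoxMinus. The shLinc line was above shCtrl without doxycycline and in the restored state, and below it with doxycycline (difference of differences -2.23 ± 0.20, limma adjusted p = 6.49e-08). Klb values are whole numbers of 2 to 13 before scaling, so their spread is understated. Nr1h4 followed the same order: 93.4, 92.8 and 87.7 against 128, 124 and 125 at NoDox, 119, 117 and 123 against 96.4, 94.98 and 102 at DoxPlus, and 89.9, 83.8 and 85.6 against 108, 113 and 108 at DoxMinus (-0.75 ± 0.06, limma adjusted p = 6.24e-09).

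Scp2 did likewise, at 90.0, 76.0 and 78.7 against 110.3, 114 and 107 at NoDox, 78.7, 76.4 and 78.6 against 65.0, 65.4 and 61.4 at DoxPlus, and 65.4, 62.4 and 65.2 against 77.9, 81.6 and 87.1 at DoxMinus (-0.72 ± 0.08). Slco2a1 was lower in shLinc at DoxPlus, at 68.1, 68.6 and 66.6 against 90.4, 89.1 and 89.2, and its hairpin difference changed by -0.28 ± 0.06 from NoDox. Its small NoDox difference of -0.11 turned to 0.06 without scaling. Abcg2 was lower in shLinc in all 3 states (-0.56, -0.69 and -0.44), so its difference was there without doxycycline.

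Aqp1 behaved differently from these genes. It stood at 4.50, 3.95 and 3.98 in shCtrl and 5.56, 5.44 and 5.45 in shLinc at NoDox, and at 9.19, 9.20 and 9.17 against 22.2, 24.4 and 25.0 at DoxMinus. The hairpin difference was larger at DoxMinus than at NoDox (0.95 ± 0.12, limma adjusted p = 1.96e-05). From NoDox to DoxPlus its change was not called, and it was lower at DoxPlus than at DoxMinus (-1.19 ± 0.12, limma adjusted p = 2.10e-07). Aqp1 values, like those of Klb, are whole numbers before scaling, so the spread of the lower groups is understated. Between DoxPlus and DoxMinus 9 members changed their hairpin difference, all lower at DoxPlus, beside 60.1% of genes (31.8% lower). Between DoxMinus and NoDox 5 did, 4 higher and 1 lower at DoxMinus, beside 19.9%.

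In the control line doxycycline and the induced control hairpin cannot be told apart. In shCtrl 9 of 13 members (69.2%) changed from NoDox to DoxPlus, 1 higher (Nr1h4, 0.39 ± 0.04) and 8 lower, a share near the 66.3% of all genes. In shLinc 10 did (76.9%), a share near the 74% of all genes. All 10 were lower, beside 36.6% of genes. Cyp27a1 fell in both lines, by 1.07 ± 0.06 in shCtrl and by 1.22 ± 0.06 in shLinc, and the change in hairpin difference was not called (-0.15 ± 0.08, interval -0.32 to 0.02). Abcc3 and Fgfr4 also fell in both, by 0.67 and 0.70 in shCtrl and by 0.94 and 1.10 in shLinc. From DoxPlus to DoxMinus 12 members changed in each line, 7 higher and 5 lower in shCtrl (beside 73.3%) and 11 higher and 1 lower in shLinc (beside 72.2%). Against NoDox, DoxMinus differed for 8 members in shCtrl (2 higher, 6 lower, beside 49.5%) and 10 in shLinc (3 higher, 7 lower, beside 52.1%). Hepatocyte markers summed to 1125 to 1178 and 1687 to 1734 (shCtrl and shLinc) at NoDox, to 1014 to 1032 and 698 to 712 at DoxPlus, and to 1257 to 1287 and 2114 to 2184 at DoxMinus. At NoDox 2 of the 5 tested markers were higher and 3 lower in shLinc. The 11 acute phase genes summed to 873 to 1044 and 4283 to 4397 at NoDox, to 18.03 to 19.2 and 93.3 to 96.0 at DoxPlus, and to 1459 to 1518 and 3790.2 to 3868 at DoxMinus. The part of both lists in the member results was not tested.

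**Figure D5:**
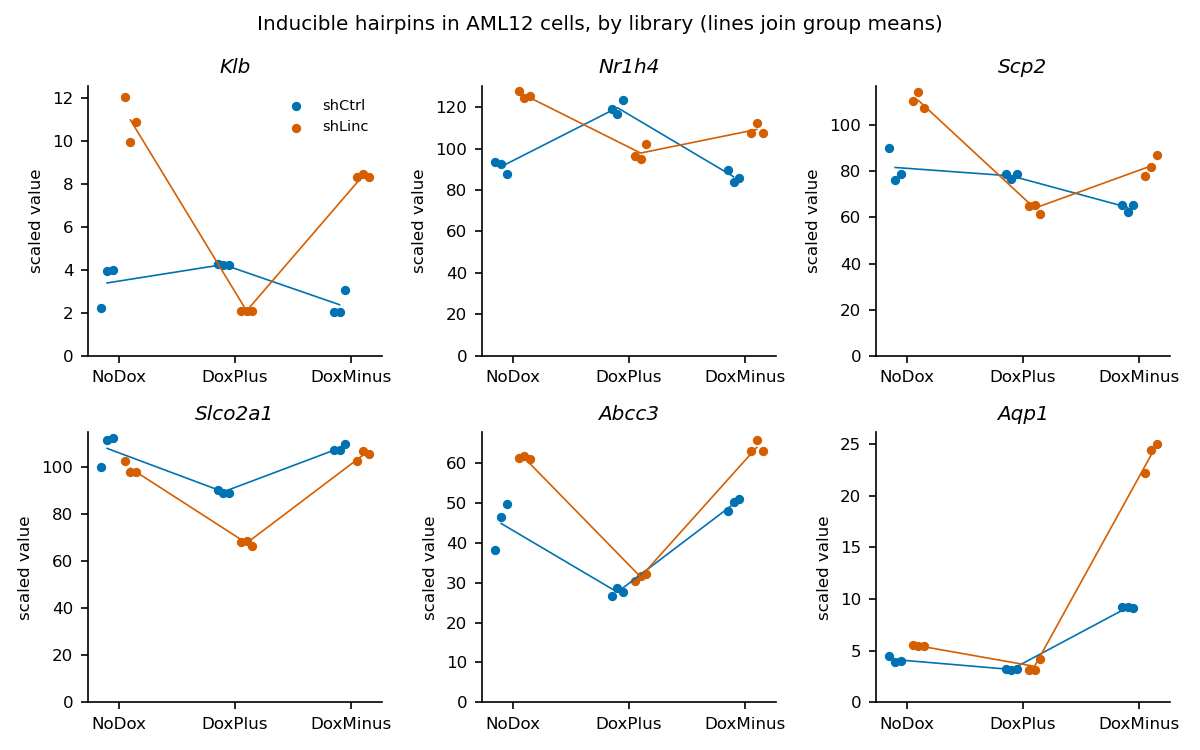
Scaled values of 6 members in AML12 lines with inducible hairpins, by library (3 per group), without doxycycline, with it and in the state titled DoxMinus. Lines join group means. Klb, Nr1h4 and Scp2 are higher in shLinc than in shCtrl at NoDox and DoxMinus and lower at DoxPlus.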

How the data were processed

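RNA-seq of 46 libraries was analysed. Per the labels' protocols, the libraries were made from rRNA-depleted total RNA. Kallisto, DESeq2 and the mm10 build appear in the submitters' processing notes, with neither version nor role. The NCD, HFD and inducible tables were deposited by the authors as whole numbers, a normalised score per gene whose columns sum to between 833910 and 975752, so depth is unknown and low genes move in whole steps. The conventional table was deposited by the authors as read counts per gene.

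Score tables were divided by TMM factors, genes with a mean of at least 3 were kept, and log2(value + 1) was fitted with limma 3.58.1 (trend, robust). Log2 changes therefore understate low genes. The analysis plan allowed for counts there, and the values called for this test instead. Counts were tested with edgeR 4.0.16 (quasi-likelihood, filterByExpr, TMM). They are printed as CPM, scaled to the library total times its TMM factor. The diet comparison took the difference of the estimates of both tables with Welch-Satterthwaite degrees of freedom. Calls used Benjamini-Hochberg adjusted p below 0.05 over all genes tested. R was 4.3.3 and DESeq2, used as an alternative, 1.42.0. Scripts were tested on simulated data. No replicate number could be given to 4 liver control columns.

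The members and lists were chosen with earlier results of these data known. All 39 members could be named. So could at most 4 tested genes of each further pathway list, those with the smallest p in a liver comparison. Where 3 or fewer genes of a list were called, every called gene could be named. The 5 clock genes named go beyond that limit, and Arntl was named after its values were seen. Falcor and Foxa2 served as checks, and the level of Zc3h11a itself is not given here. Gene positions come from GENCODE M21 and promoters from RefSeq.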

Additional observations from a re-analysis of the deposited data

Results flagged for a closer look

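In 132 groups of 4 to 10 libraries, 4 held a value far from the rest by Dixon's criterion, and chance gives about 1 in 20. Nr0b2 stood at 44.0 in an unnumbered NCD control (column Ctrl-2), against 8.52 to 11.3 in the other controls. Aqp1 stood at 41.9 in NCD KO replicate 2, against 45.4 to 46.0. In HFD KO replicate 1, Scp2 stood at 892 against 957 to 985, and Baat at 45.1 against 54.4 to 58.4.

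The KO effect differed between diets by the limma test of the difference for 7 members. The differences (HFD minus NCD, log2) were -1.02 for Abcc2, -1.08 for Abcg5, -0.91 for Abcg8, -0.56 for Akr1d1, -0.59 for Slc10a1, -1.30 for Slco1a4 and -0.68 for Slco1b2.

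In the inducible lines the hairpin difference changed with doxycycline by the limma interaction test. From NoDox to DoxPlus it changed by -0.27 for Abcc3, 0.57 for Abcc4, -0.40 for Fgfr4, -0.15 for Hsd3b7, -2.23 for Klb, -0.75 for Nr1h4, -0.72 for Scp2 and -0.28 for Slco2a1. DoxPlus against DoxMinus differed by -0.25 for Abcg2, -0.34 for Amacr, -1.19 for Aqp1, -0.47 for Fgfr4, -2.25 for Klb, -0.62 for Nr1h4, -0.63 for Scp2, -0.73 for Slc10a2 and -0.36 for Slco2a1. DoxMinus against NoDox differed by 0.55 for Abcc4, 0.63 for Amacr, 0.95 for Aqp1, -0.19 for Hsd3b7 and 0.60 for Slc10a2.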

How the results depend on the processing

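Of the liver comparisons, the 7 NCD calls became 15 without scaling and 11 with array weights, an alternative chosen after seeing the data. The 7 diet-difference calls became 1 without scaling and 11 with array weights. Leaving out 1 library gave 0 to 11 NCD calls, 3 to 11 diet-difference calls and 0 HFD calls. With a minimum mean of 10, fewer members were tested in the inducible lines, and the calls fell to 6 at NoDox, 5 at DoxMinus, 5 for DoxPlus against DoxMinus, 3 for DoxMinus against NoDox, and for that step within lines to 3 in shCtrl and 6 in shLinc. The only called value to change sign was the NoDox difference of Slco2a1, -0.11, which was 0.062 without scaling (limma adjusted p = 0.387). The cause was not tested. In the conventional cells leaving out 1 library gave 10 to 13 calls per comparison.

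Deviations of same-numbered libraries from their group means had a median correlation of 0.04 in the inducible table, against -0.01 for other numbers. It was 0.03 against -0.02 in the conventional, 0.15 against -0.09 in the NCD and 0.23 against -0.06 in the HFD table. The liver values rest on 2 NCD and 3 HFD pairs, too few to tell whether the numbers pair the libraries. With a replicate block the NCD calls fell to 0, on 4 libraries with shared numbers, and HFD stayed at 0. In the inducible lines the block gave 5 to 12 calls per comparison, within 1 of the fit without it, and in the conventional cells 10, 12 and 11, the same counts.

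Depth is unknown in 3 tables, and values there move in whole steps, which limits low genes such as Klb, Slco1a4 and, in the inducible lines, Aqp1.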
